A study of Mus musculus with 12 samples.

Results

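The 9 long noncoding RNAs described here are Malat1, Neat1, Meg3, H19, Rian, Gas5, Snhg1, Snhg3 and Snhg12, all encoded on autosomes, of 37583 gene IDs counted in each library. They were chosen by name, through their Ensembl mouse gene IDs, in 3 groups: 2 RNAs retained in the nucleus, 3 imprinted RNAs and 4 hosts of small nucleolar RNAs (snoRNAs). Measured levels and differences of these libraries were in view when they were chosen, so their values are given as descriptions, and adjusted p-values place each gene among all genes tested rather than test the choice.

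The libraries came from Ocy454, a mouse osteocytic cell line derived from long bone, in 4 groups of 3 replicates. Control cells are labelled as original cells, although the methods describe a control for gene deletion that carries an empty guide vector, and DKO cells were a deletion line lacking HDAC4 and HDAC5. Each line was either kept without movement (static) or exposed for 3 h to fluid flow shear stress (FFSS) from orbital rotation on a heated platform. The study set FFSS against static culture in each line to learn whether these class IIa histone deacetylases are needed for the transcriptional response to flow. All groups shared the parental line and the 3 h time point. Nothing in the labels says that replicates were separate cultures, so p-values measure the spread between libraries, and the deletion cannot be told apart from other differences between one cell line and the other.

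Malat1 and Neat1 are neighbouring, abundant nuclear RNAs. Malat1 gathers in nuclear speckles beside splicing factors, and Neat1 is the scaffold of paraspeckles, which hold RNA-binding proteins. Meg3 and Rian are made from the maternal copy of the Dlk1-Dio3 cluster, and H19 from the maternal copy of its locus beside Igf2. Gas5, Snhg1, Snhg3 and Snhg12 carry snoRNAs in their introns. Their spliced transcripts are, for the most part, short-lived, and several begin with the pyrimidine run of messages for the translation machinery.

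The libraries held between 17585225 and 19174118 gene counts. Hdac4 counts (ENSMUSG00000026313, 1 of 2 IDs with that symbol) were 458 to 550 in control static libraries and 220 to 309 in DKO static libraries. Hdac5 counts were 2421 to 2706 and 1461 to 1634, so transcript from both genes remained in the deletion line. Under FFSS, Hdac5 was at 1457 to 1755 counts in control and 1553 to 1687 in DKO libraries (fitted log2 difference 0.19, SE 0.08, edgeR adjusted p = 0.0512). The same Hdac4 ID was lower in DKO cells there (-1.48, SE 0.13, edgeR adjusted p = 5.65e-07). Osteocyte markers were present but uneven, with a summed level of 212 to 266 CPM (counts scaled to library size) in control static and 3840 to 3930 CPM in DKO static libraries. Of the 7 tested, 4 were called higher and 2, Pdpn and Ptprz1, lower in DKO static cells. Chondrocyte markers summed to 78.1 to 103 CPM and 2360 to 2950 CPM, while muscle markers stayed at or under 0.26 CPM in every library. Of the 5 chondrocyte markers tested, 4 were called higher, and Acan was at -0.26 (edgeR adjusted p = 0.653). Of all genes, 15.3% were called in either direction. Osteoblast markers summed to 19600 to 23600 CPM and 58200 to 65600 CPM, and blood and macrophage markers to 24 to 28.5 CPM and 2.91 to 3.29 CPM. Differences of line therefore came with differences of these marker lists, and their part in the results below was not tested. In such bulk RNA, fewer cells of a type and less RNA per cell cannot be told apart.

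Replicate 1 of control FFSS stood apart from replicates 2 and 3. Of 14904 genes tested, 237 were more than 1 log2 unit above the control static mean in replicate 1, against 952 in replicate 2 and 1127 in replicate 3. The share of reads that fell outside annotated genes was 5.10% to 5.21% for the static libraries of control cells. With FFSS, the same cells gave 5.87% in replicate 1, 9.19% in replicate 2 and 10.04% in replicate 3. DKO cells gave 7.07% to 7.14% without flow and 7.94%, 8.09% and 8.56% with it. With 3 libraries a side, an exact two-sided permutation test cannot go below 0.1, which was its value for FFSS against static in each line and for DKO against control in static culture.

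Sequence was read from the mm9 genome at the annotated starts, 250 bases before to 50 after. The promoter of Malat1 (chr19:5802622-5802921, minus strand) is shown for the motif matches it holds. Capitals mark TGACG, the core of a cAMP response element, and ACGTG, the core of a hypoxia response element, each on either strand, and a MEF2 site, bound by the factors that class IIa deacetylases dock on. Matches may overlap one another, as TGACG and ACGTG do here.
Malat1: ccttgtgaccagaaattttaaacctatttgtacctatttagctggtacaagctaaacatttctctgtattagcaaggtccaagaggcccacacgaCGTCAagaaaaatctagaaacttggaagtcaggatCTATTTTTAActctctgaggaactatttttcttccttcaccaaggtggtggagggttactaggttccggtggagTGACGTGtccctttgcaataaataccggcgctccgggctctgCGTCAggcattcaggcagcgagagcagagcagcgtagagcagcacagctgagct

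The Malat1 promoter held 3 matches to TGACG, which occurred at least once in 29.2% of the 14876 tested genes with an annotated start. It also held 1 match to ACGTG, found in 24.4% of those promoters, and 1 MEF2 site, found in 2.19%. Over the 9 RNAs, 4 promoters held TGACG, 3 held ACGTG and 2 held a MEF2 site, the second being Snhg1. A match describes these letters only.

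The start sites of the snoRNA hosts with measurable reads are shown for the pyrimidine run, with 60 bases before the annotated start and 40 from it on. Capitals mark the longest run of C and T on the gene's strand that overlaps the window from 10 bases before to 20 after the start, where it reaches 7 bases, and the MEF2 site of Snhg1. The windows are chr1:162964493-162964592 for Gas5, chr19:8797926-8798025 for Snhg1 and chr4:131864533-131864632 for Snhg12, all on the plus strand.
Gas5: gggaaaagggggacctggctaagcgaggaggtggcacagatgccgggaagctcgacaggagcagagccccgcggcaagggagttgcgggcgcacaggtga
Snhg1: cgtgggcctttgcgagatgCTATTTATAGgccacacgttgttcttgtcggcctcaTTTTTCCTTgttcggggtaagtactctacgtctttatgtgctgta
Snhg12: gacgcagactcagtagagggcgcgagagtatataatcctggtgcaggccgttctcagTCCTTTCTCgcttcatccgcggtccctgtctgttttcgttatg

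Snhg1 and Snhg12 each had a run of 9 pyrimidines at the annotated start, and Gas5 and Snhg3 had none of 7 or more. Such a run occurred in 23.4% of tested genes, in 36.6% of 82 ribosomal protein genes and in 9 of 16 translation factors with a 5′ terminal oligopyrimidine message. Of the 9 RNAs, 22.2% had one, near the share of tested genes. Annotated starts can lie some bases from the base at which transcription begins. Many genes of both lists lacked a run here, so its absence at Gas5 or Snhg3 does not show how their RNAs begin.

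Of the 9 RNAs, 5 had enough reads to be compared, and they spanned a narrow range of levels. In control static cells, reads scaled to library size and annotated exon length (RPKM) averaged 32.5 ± 1.5 for Gas5, 14.5 ± 0.911 for Snhg1, 11.5 ± 0.655 for Snhg12, 9.13 ± 1.11 for Malat1 and 6.09 ± 0.187 for Neat1 (SD, n = 3). Every step in that order was wider than the SDs beside it. Those SDs measure the spread between libraries only. The order also rests on annotated exon lengths, from 1626 bases for Snhg12 to 20771 for Neat1, whose error was not measured. In DKO FFSS cells the order changed below Gas5, at 35.7 ± 0.640 RPKM. Neat1 (15.7 ± 0.417), Snhg1 (15.6 ± 0.834) and Malat1 (15.0 ± 1.1) did not differ beyond their spread there, and Snhg12 was lowest at 8.1 ± 0.244 RPKM (SD, n = 3). The methods name an isolation of mRNA and no poly(A) selection. Malat1 and the long form of Neat1 end without a usual poly(A) tail, and whether their RPKM values follow their abundance in the cell was not tested.

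**Figure D1:**
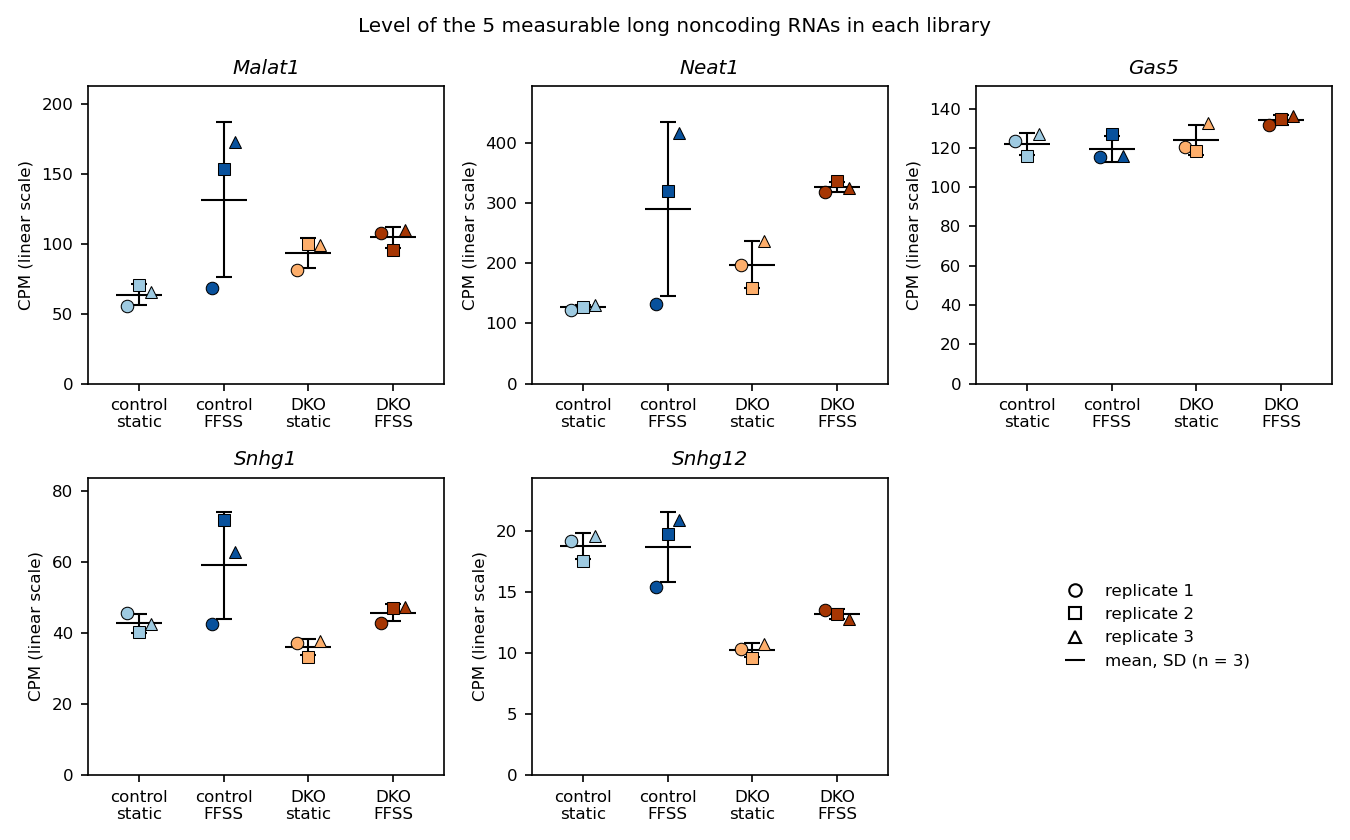
Level of Malat1, Neat1, Gas5, Snhg1 and Snhg12 in CPM (linear scale, vertical axis) in each library of the 4 groups (horizontal axis), with marker shapes for replicates 1 to 3 and lines for the mean and SD. Replicate 1 of control FFSS lies beside the static libraries for Malat1, Neat1 and Snhg1, and Snhg12 is lower in every DKO library than in every control library.

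In control cells, both nuclear RNAs and, less, the host Snhg1 were higher under FFSS, and replicates 2 and 3 carried that difference. Malat1 (ENSMUSG00000092341, chr19:5795690-5802671, 1 exon block of 6982 bases) was at 55.3, 70.5 and 65.6 CPM in control static replicates 1, 2 and 3 and at 68.6, 154 and 173 CPM in control FFSS. Its first FFSS replicate lay within the static range, and the groups overlapped. Malat1 rose by 1.05 on the log2 scale (SE 0.29, edgeR quasi-likelihood test, adjusted p = 0.0212).

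Neat1 (ENSMUSG00000092274, chr19:5824708-5845478, annotated as 1 block of 20771 bases that joins its short and long forms) was at 122, 127 and 130 CPM in control static replicates and at 133, 320 and 416 CPM in control FFSS. The groups did not overlap, although the first FFSS replicate exceeded the highest static library by little. Neat1 rose by 1.20 on the log2 scale (SE 0.34, edgeR adjusted p = 0.0258). Against the static mean, its FFSS libraries stood at 1.05, 2.53 and 3.29 times, and those of Malat1 at 1.08, 2.42 and 2.72 times.

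Snhg1 (ENSMUSG00000090867, chr19:8797986-8800932), host of 8 annotated snoRNAs of the C/D box class, was at 45.7, 40.3 and 42.6 CPM in control static replicates and at 42.5, 72.0 and 62.9 CPM in control FFSS. It followed the same division of replicates, and rose by 0.47 on the log2 scale (SE 0.15, edgeR adjusted p = 0.0279), passing in 13 of 21 alternatives. It did not pass without control FFSS replicate 2 (0.30, adjusted p = 0.11) or 3 (0.42, adjusted p = 0.0965), without control static replicate 2 (adjusted p = 0.0909) or 3 (0.0752), with no filter (0.0722) or in the 6 control libraries alone (0.113). Its annotated exons cover the whole gene, so spliced and intron-retaining RNA were counted together.

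The remaining hosts behaved otherwise. Gas5 (ENSMUSG00000053332, chr1:162964553-162968670), a host of 9 snoRNAs known for its accumulation in growth-arrested cells, was at 124, 116 and 127 CPM in control static replicates and at 115, 127 and 116 CPM in control FFSS. The groups overlapped, with a fitted difference of -0.03 (SE 0.06, 95% interval -0.16 to 0.10 on the log2 scale, edgeR adjusted p = 0.718). Snhg12 (ENSMUSG00000086290, chr4:131864593-131866939), which holds 4 snoRNAs, was at 19.1, 17.6 and 19.6 CPM and then 15.4, 19.7 and 20.9 CPM, a difference of -0.01 (SE 0.11, 95% interval -0.23 to 0.22, edgeR adjusted p = 0.971). The direction of Gas5 turned with library totals as the only scaling (0.09), as did that of Snhg12 (0.13). With the share of reads outside annotated genes as a term in the model, Snhg12 was at -0.34 (SE 0.13, edgeR adjusted p = 0.0777).

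Of the 6 RNAs tested in control cells, 2 were called, meaning over 2-fold at an adjusted p below 0.05, beside 5.93% of all 14904 genes. An adjusted p under 0.05 at any fold, here said to pass, was reached by 3, beside 35.8% of all genes, and 1 had groups that did not overlap, beside 41.3%. The median of the 6 was 0.48, against 0.01 over all genes on the log2 scale. Snhg3, at 8 reads or fewer in every library, is among the 6 and gave a middle value (0.50, SE 0.48). The calls of Malat1 and Neat1 were lost in the 6 control libraries alone, at unaltered folds (1.05, adjusted p = 0.0955, and 1.20, adjusted p = 0.0994). They were also lost in fits without control static replicate 1 (0.96 and 1.18) or 3 (1.07 and 1.21), and without control FFSS replicate 2 (0.92 and 1.12) or 3 (0.80 and 0.84), and that of Neat1 without control static replicate 2 (1.20). Without control FFSS replicates 2 and 3 they were at 0.09 and 0.05.

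The rise of Malat1 and Neat1 went with the share of reads outside annotated genes. Across the 12 libraries, replicates 2 and 3 of control FFSS had the highest share and the highest Malat1 level, and the control static libraries had the lowest shares and, with control FFSS replicate 1, the lowest Malat1 levels. With that share as a term in the model, the fitted FFSS differences in control cells were -0.11 (SE 0.16) for Malat1, -0.20 (SE 0.20) for Neat1 and -0.09 (SE 0.13) for Snhg1. Whether the share marks a property of the RNA preparation or of the cells was not tested. Of 6 osteoblast markers, 3 passed downwards and 0 upwards in control cells under FFSS, beside 35.8% of all genes passing in either direction. Their median was -0.94, and their summed level was 6450 to 19800 CPM against 19600 to 23600 CPM in static culture. Col1a1, the main collagen of bone, was at 290257, 108228 and 110572 counts in FFSS replicates 1, 2 and 3, against 286174 to 346093 counts in static replicates. Ibsp, a matrix protein of bone, was at 56817, 9377 and 10277 counts against 47375 to 56586, and did not pass (-1.11, SE 0.62, edgeR adjusted p = 0.197). In DKO cells 0 of the 6 passed. The part of these markers in the results was not tested. Malat1 and Neat1 levels correlated with r = 0.879 over the 12 libraries, which share normalisation and this difference between libraries.

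**Figure D2:**
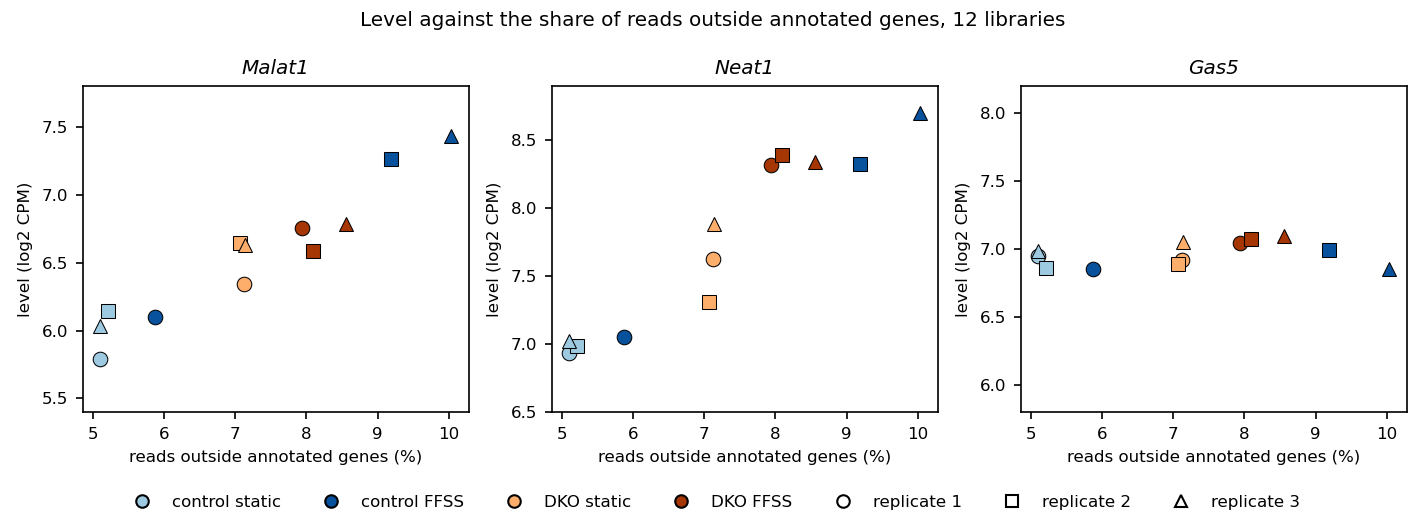
Level of Malat1, Neat1 and Gas5 (log2 CPM, vertical axis, same span in each panel) against the percent of reads outside annotated genes (horizontal axis) in 12 libraries, coloured by group with marker shapes for replicates. Malat1 and Neat1 are lowest where the share is 5.10% to 5.87% and Malat1 is highest where it is 9.19% and 10.04%, while Gas5 stays level.

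The same libraries carried higher levels of many other noncoding genes. Of 953 other tested genes annotated as lincRNA or as processed transcript, the classes of the 9 RNAs, 150 were called higher and 10 lower in control cells under FFSS, with a median of 0.42. These calls made up 16.8% of the 953, beside 5.93% of all genes. By library, their median against the static mean was 0.12 in replicate 1, 0.39 in replicate 2 and 0.48 in replicate 3, whereas medians of protein-coding genes were between -0.02 and -0.01. Of these noncoding genes, 5.98%, 23.9% and 29.2% stood more than 1 log2 unit above the static mean in replicates 1, 2 and 3. The shares of protein-coding genes were 1.17%, 4.83% and 5.6%. In DKO FFSS libraries, against the DKO static mean, the shares were 2.41% to 2.83% for noncoding and 0.403% to 0.579% for protein-coding genes. The 160 calls became 267 without replicate 1, 79 without replicate 3, 33 without replicates 2 and 3, and 23 with the share outside genes in the model. Malat1 and Neat1 moved beside their annotation classes in these libraries.

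The nuclear bodies that both RNAs occupy were read from protein lists, beside 35.8% of all genes passing in either direction. Of 14 nuclear speckle proteins, 9 passed an adjusted p under 0.05 upwards in control cells and 0 downwards, with a median of 0.34, and Srsf5, a splicing factor of the SR family, was called (1.05, SE 0.08, edgeR adjusted p = 1.68e-06). Srsf5 was at 1209, 1407 and 1384 counts in static replicates and at 2483, 3015 and 3258 counts under FFSS, so all its FFSS libraries, replicate 1 included, stood above the static range. Of other members, chosen after their values were seen, Srsf6 was also higher in all 3 FFSS libraries (8742, 8728 and 8263 counts against 5242 to 5484), as was Srsf1 (8727, 9600 and 9031 against 6378 to 6685). Srsf11 was higher chiefly in replicates 2 and 3 (2858, 5069 and 5350 against 2663 to 2673). Of 11 paraspeckle proteins, 3 passed upwards and 2 downwards with a median of 0.00, among them Sfpq, a core paraspeckle protein, at 0.26 (SE 0.07, edgeR adjusted p = 0.00871).

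The other snoRNA hosts were measured beside the 4 described here. Of 17 listed, 13 matched the annotation and 11 were tested. In control cells 4 passed an adjusted p under 0.05 upwards and 0 downwards, with a median of 0.49, beside 35.8% of all genes passing in either direction. The 1 called was 9430008C03Rik, named Snhg17 in current annotation, at 458, 458 and 455 counts in static replicates and 457, 1297 and 1435 counts in FFSS replicates. Its first FFSS replicate equalled the static libraries, as for Snhg1, and with the share outside genes in the model its fitted difference of 1.13 (SE 0.32) became -0.27 (SE 0.13). Among proteins of the snoRNA particle, 5 of 10 passed upwards and 0 downwards, with a median of 0.26.

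In DKO cells the question was whether the same RNAs responded to FFSS without both deacetylases. Neat1 had the largest fitted difference of the 5, with FFSS replicates closer together than the static ones. It was at 197, 159 and 237 CPM in DKO static replicates and at 319, 336 and 325 CPM in DKO FFSS. The groups did not overlap, and each FFSS library stood at 1.63 to 1.72 times the static mean. The fitted difference of 0.72 (SE 0.34, 95% interval -0.05 to 1.49, edgeR adjusted p = 0.408) did not pass. It did not pass in the 6 DKO libraries alone either (0.73, SE 0.16, adjusted p = 0.0608), and passed in 1 of 20 alternatives, the fit without control FFSS replicate 1 (adjusted p = 0.0201).

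Malat1 did not share that pattern. It was at 81.1, 100 and 99.1 CPM in DKO static replicates and at 108, 96.0 and 110 CPM in DKO FFSS. The groups overlapped, with a difference of 0.16 (SE 0.29, 95% interval -0.48 to 0.81, edgeR adjusted p = 0.880). The ratio of Neat1 to Malat1 in RPKM, free of scaling between libraries, was 0.817, 0.533 and 0.803 for DKO static replicates against 0.992, 1.18 and 0.990 for DKO FFSS replicates. In control cells the ratio was 0.606 to 0.744 in static and 0.650, 0.700 and 0.809 in FFSS libraries, so DKO FFSS lay above all other libraries.

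The hosts Snhg1 and Snhg12 were also higher in every DKO FFSS library than in any DKO static library. Snhg1 was at 37.2, 33.4 and 37.7 CPM in static and at 43.0, 47.2 and 47.3 CPM in FFSS replicates, a difference of 0.34 (SE 0.15, edgeR adjusted p = 0.340). Snhg12 was at 10.3, 9.60 and 10.7 CPM and then 13.5, 13.2 and 12.8 CPM, a difference of 0.37 (SE 0.11, edgeR adjusted p = 0.158). Neither passed over 12 libraries. Both passed in fits of the 6 DKO libraries alone (adjusted p = 0.000406 and 0.00796) and without control FFSS replicate 1 (0.00142 and 0.00872).

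Gas5 was at 121, 118 and 133 CPM in DKO static and at 132, 135 and 136 CPM in DKO FFSS replicates. The groups overlapped narrowly, with a difference of 0.11 (SE 0.06, edgeR adjusted p = 0.462). Of the 6 RNAs tested in DKO cells, 0 were called by edgeR, beside 0.0872% of all genes, and 0 passed the adjusted p at any fold, beside 0.872%. At an unadjusted p under 0.05, Snhg1 and Snhg12 passed, beside 13.5% of all genes, and DESeq2 called 0. Groups did not overlap for 3, beside 29.9% of all genes. Of the 953 other noncoding genes 0 were called. Of the 11 other snoRNA hosts 0 passed, with a median of 0.34 against -0.01 over all genes, and of 10 snoRNA particle proteins 2 passed upwards, with a median of 0.22.

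The difference between the FFSS effects of both lines was tested as an interaction. For Malat1 it was -0.88 (SE 0.41, 95% interval -1.80 to 0.03, edgeR adjusted p = 0.226), for Neat1 -0.47 (SE 0.48, adjusted p = 0.581) and for Snhg1 -0.12 (SE 0.21, adjusted p = 0.755). For Snhg12 it was 0.37 (SE 0.15, adjusted p = 0.168) and for Gas5 0.15 (SE 0.09, adjusted p = 0.317). Of the 6, 0 were called by edgeR, beside 0.651% of all genes, and 0 passed, beside 3.97%. DESeq2 called 0 as well, and Snhg12 alone was under 0.05 before adjustment, beside 23.8% of all genes.

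The interaction turned on control FFSS replicate 1. Without it, Malat1 was called (-1.19, SE 0.14, edgeR adjusted p = 2.71e-05), and Neat1 (-0.82, adjusted p = 0.021) and Snhg1 (-0.31, adjusted p = 0.0147) passed. Without replicates 2 and 3 of control FFSS, the values were 0.09, 0.68 and 0.38, of the opposite sign, and that of Snhg1 passed (adjusted p = 0.0203), as did Snhg12 (0.68, adjusted p = 0.00182). The sign and the call of the interaction thus depended on which control FFSS libraries were kept.

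**Figure D3:**
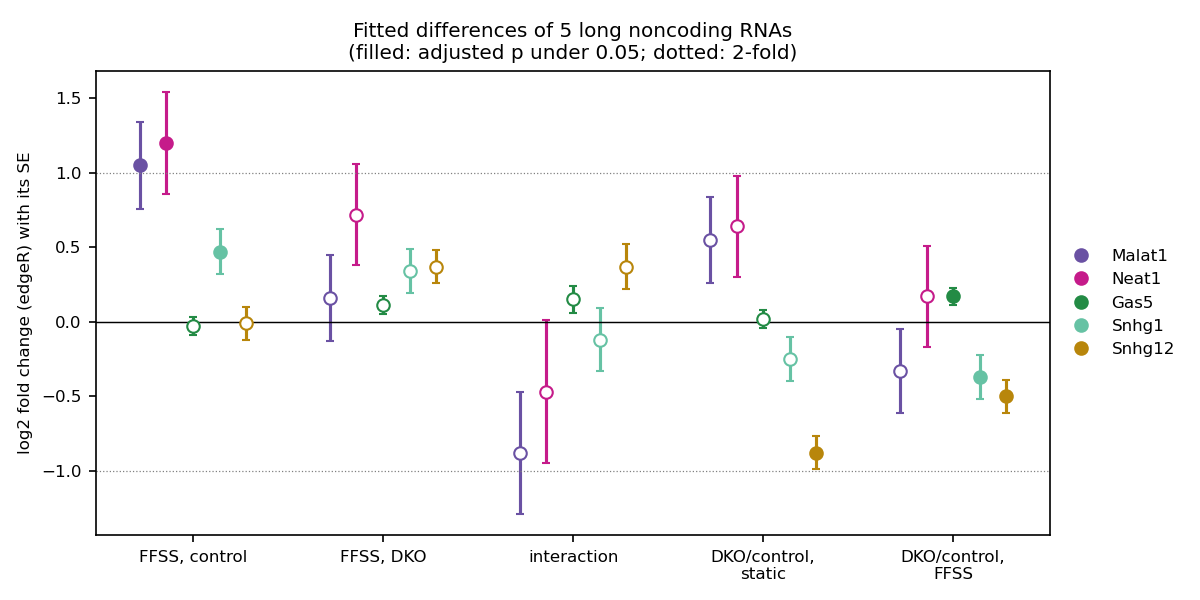
Fitted log2 fold changes (vertical axis, points) with their SE (bars) for 5 long noncoding RNAs in 5 comparisons (horizontal axis). Filled points have an adjusted p under 0.05. Malat1 and Neat1 exceed the dotted 2-fold line in control cells under FFSS, and Snhg12 in DKO against control cells has the smallest adjusted p, 1.22e-05.

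Between the lines, the clearest difference was in a snoRNA host. Snhg12 fell by 0.88 on the log2 scale in DKO against control cells in static culture (SE 0.11, edgeR adjusted p = 1.22e-05), to 0.545 times the control level. The values above, 17.6 to 19.6 CPM in control and 9.60 to 10.7 CPM in DKO libraries, do not overlap. The difference held its side of the threshold in all 20 alternatives, with fitted values from -1.07 to -0.83. It fell short of the 2-fold limit in the main analysis and exceeded it with the share outside genes in the model.

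Under FFSS, Snhg12 was lower in DKO cells by a smaller amount, -0.50 (SE 0.11, edgeR adjusted p = 0.00116), and its groups did not overlap. It did not pass there without control FFSS replicates 2 and 3 (-0.21, adjusted p = 0.122). Relative to Gas5, another host, Snhg12 stood at 0.350 to 0.358 in control static and 0.187 to 0.198 in DKO static libraries, as a ratio of RPKM. The ratio, free of scaling between libraries, was 0.216 to 0.238 in DKO FFSS and 0.309, 0.358 and 0.417 in control FFSS. It was lower in all DKO libraries than in all control libraries.

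**Figure D4:**
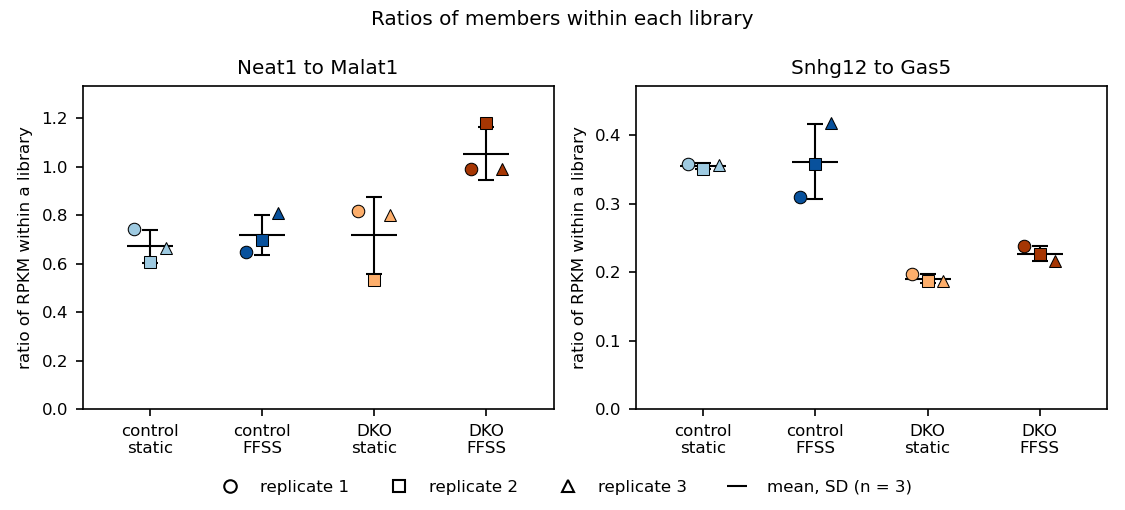
Ratio of RPKM within each library (vertical axis) for Neat1 to Malat1 and for Snhg12 to Gas5 in the 4 groups (horizontal axis), with marker shapes for replicates and lines for the mean and SD. Neat1 to Malat1 is highest in the DKO FFSS libraries, and Snhg12 to Gas5 is lower in all DKO libraries than in all control libraries.

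Snhg1 was lower in DKO static than in control static libraries without overlap, -0.25 (SE 0.15, 95% interval -0.57 to 0.08, edgeR adjusted p = 0.184). It passed in 3 of 20 alternatives, with fitted values from -0.57 to -0.19. These were the 6 static libraries alone, the fit without control FFSS replicate 1 and the share outside genes in the model. Under FFSS it was at -0.37 (SE 0.15, edgeR adjusted p = 0.0486), close to the threshold, and passed in 5 of 21 alternatives. Without control FFSS replicates 2 and 3 it was at 0.13. Gas5 did not differ beyond its spread in static culture (0.02, SE 0.06, 95% interval -0.11 to 0.15, edgeR adjusted p = 0.796). Under FFSS it was higher in DKO cells by 0.17 (SE 0.06, adjusted p = 0.0303), a difference that library totals alone turned to -0.03. This difference did not pass in the 6 FFSS libraries alone. Nor did it pass without control FFSS replicate 3, DKO FFSS replicate 2 or DKO FFSS replicate 3.

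Malat1 and Neat1 were higher in all DKO static than in all control static libraries, by 0.55 (SE 0.29, edgeR adjusted p = 0.140) and 0.64 (SE 0.34, adjusted p = 0.145). Neither passed with the spread shared over 12 libraries. Both passed in the 6 static libraries alone (adjusted p = 0.00596 and 0.0249) and without control FFSS replicate 1 (0.000308 and 0.00589). With the share outside genes in the model they were at -0.09 and -0.12. Under FFSS the lines overlapped for both RNAs, with Malat1 at -0.33 (SE 0.28, adjusted p = 0.353) and Neat1 at 0.17 (SE 0.34, adjusted p = 0.694). There Malat1 passed without control FFSS replicate 1, and Neat1 passed with the share outside genes in the model. With control FFSS replicate 1 as the only library kept in its group, Malat1 was at 0.63, of the opposite sign, and Neat1 at 1.32. Leaving out 1 library moved Malat1 between -0.64 and -0.09 under FFSS.

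Of the 6 RNAs in static culture, 0 were called in DKO against control cells by edgeR, beside 15.3% of all genes. An adjusted p under 0.05 was reached by 1, Snhg12, beside 54.2%, and 4 had groups that did not overlap, beside 69% of all genes. Under FFSS 0 were called, beside 17.2%, 3 passed, beside 56.6%, and 2 did not overlap, beside 58.4%. At an unadjusted p under 0.05, 1 passed in static culture, beside 58.7%, and 3 under FFSS, beside 60.7%. DESeq2 called 0 in either. These shares were at or below those of all genes, of which 2278 in static and 2565 in FFSS culture were called.

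Coding genes next to the RNAs were read to set them in their loci, a step added after the members' values had been seen. On chromosome 4, Trnau1ap, needed for selenocysteine tRNA, lies 739 bases from Snhg12 on the opposite strand and was lower in DKO static cells by a like amount, -0.95 (SE 0.10, edgeR adjusted p = 2.88e-06). Taf12, a subunit of the general transcription factor TFIID, lies 12.9 kb away on the other side and was at -0.08 (adjusted p = 0.479). Snhg1 lies 127 bases from Slc3a2, the heavy chain of amino acid transporters, which is transcribed from the opposite strand. Slc3a2 fell by 1.54 (edgeR adjusted p = 4.87e-10) in DKO static cells, beside -0.25 for Snhg1.

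Frmd8, a coding gene 4.22 kb from Neat1, was at -0.11 in control cells under FFSS (edgeR adjusted p = 0.366).

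Lists of the hosts' machinery were read between the lines in the same way, beside 54.2% of all genes that passed in either direction in static and 56.6% in FFSS culture. Of 10 snoRNA particle proteins, 6 passed downwards and 0 upwards in static culture (median -0.30), and 6 and 0 under FFSS (median -0.49). Of 16 translation factors with a 5′ terminal oligopyrimidine message, 13 passed downwards in static culture and 6 under FFSS. Ribosomal proteins were mixed, with 33 of 80 passing downwards and 8 upwards in static culture. Of the 11 other hosts, 3 passed downwards and 1 upwards in static culture, and 3 and 0 under FFSS. Of 10 nonsense-mediated decay factors, the pathway that degrades several spliced host transcripts, 2 passed upwards and 1 downwards in static culture, with a median of 0.02.

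The imprinted RNAs were at or near the limit of detection in every library. Meg3 (ENSMUSG00000021268, chr12:110779211-110809936) had 0 reads in all 6 control libraries, 1 read in each DKO static library, and 0, 2 and 1 reads in DKO FFSS replicates. Rian (ENSMUSG00000091793, chr12:110842155-110899919), which hosts 13 annotated snoRNAs, had 4 reads over the 12 libraries. H19 (ENSMUSG00000000031, chr7:149761434-149764048), the precursor of Mir675, had 2, 2 and 0 reads in control static replicates and 2 reads in the other 9 libraries. A count of 0 in one library allows up to 3 reads, or 0.146 to 0.178 CPM. These limits cover counting error only. All 3 failed the filter on low counts, and no difference was detectable at this depth.

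Of their coding neighbours, Dlk1 and Igf2 differed between the lines in both cultures, while Mrpl23 beside H19 (0.20, edgeR adjusted p = 0.660) and Dio3 at the far side of Meg3 and Rian (-0.71, adjusted p = 0.283) did not pass in static culture. Under FFSS, Mrpl23 was at -0.11 (adjusted p = 0.797) and Dio3 was called lower in DKO cells (-1.18, adjusted p = 0.0126), a call lost without control FFSS replicate 3 (-0.82), without DKO FFSS replicate 3 (-1.02) and without control FFSS replicates 2 and 3 (-0.42). Dlk1, a paternally expressed gene 77.7 kb from Meg3 that restrains adipocyte differentiation, was at 38, 31 and 43 counts in control static replicates and at 797, 721 and 797 counts in DKO static replicates. Dlk1 rose by 4.43 (SE 0.11, edgeR adjusted p = 5.18e-12) in static and by 4.28 (SE 0.11, adjusted p = 5.43e-12) in FFSS culture. Mirg, the noncoding miRNA host at the far end of the cluster, stayed at 5 reads or fewer in every library.

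Igf2, the growth factor gene that shares control elements with H19, went the other way. It was at 1488, 1281 and 1269 counts in control static and at 117, 171 and 140 counts in DKO static replicates. Igf2 fell by 3.17 in static (SE 0.25, edgeR adjusted p = 1.71e-06) and by 3.52 in FFSS culture (SE 0.25, adjusted p = 8.67e-07). The maternal RNAs of both loci stayed near 0 in either line, whatever the level of the paternal gene. Strand was not recorded, and allele was not measured.

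**Figure D5:**
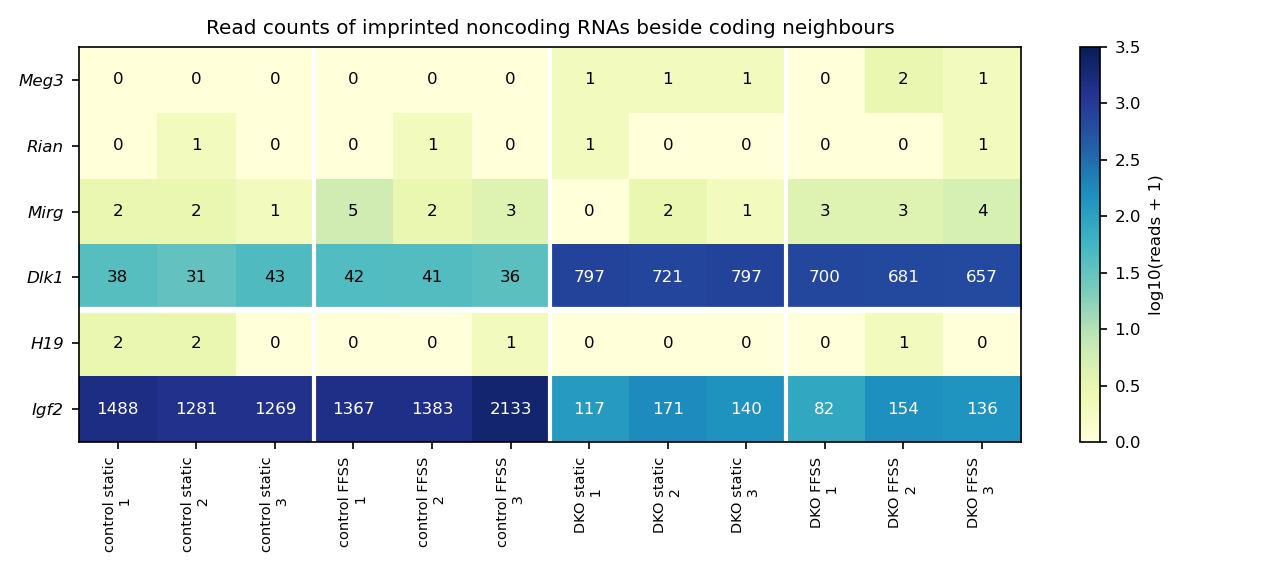
Read counts of Meg3, Rian, Mirg and Dlk1 (upper block, Dlk1-Dio3 cluster) and of H19 and Igf2 (lower block) in each of 12 libraries (columns, by group), with the count printed and the colour on a log10(reads + 1) scale. Meg3, Rian and H19 stay at 2 reads or fewer everywhere, while Dlk1 is higher and Igf2 lower in the DKO libraries.

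Other imprinted genes were measured beside them. Of 27 listed, 25 matched and 15 were tested. In DKO against control static cells, Mest, a paternally expressed hydrolase gene, was called higher (4.89, SE 0.17, edgeR adjusted p = 7.58e-11), as were Asb4 (3.14) and the noncoding Airn (2.22), and 2 were called lower, Igf2 among them, beside 15.3% of all genes called in that comparison. Airn, which silences Igf2r in cis and overlaps it on the opposite strand, so that their reads cannot be told apart, was at 12 to 16 counts in control static and 65 to 66 counts in DKO static libraries. Under FFSS in control cells, 1 was called higher, Nnat (2.21, SE 0.48, edgeR adjusted p = 0.00373), and 1 lower, Asb4 (-1.09, SE 0.34, adjusted p = 0.0264). Asb4 did not pass in 9 of 21 alternatives, in which it ranged from -1.11 to -0.14, the last with the share outside genes in the model. Without control FFSS replicate 1 it was at -1.80. Nnat did not pass with that share in the model (0.66, adjusted p = 0.568) or without control FFSS replicates 2 and 3 (0.82). The 2 calls stand beside 5.93% of all genes. In the Dlk1-Dio3 cluster Dio3, a thyroid hormone deiodinase, rose in control cells under FFSS by 1.84 (SE 0.39, adjusted p = 0.0031), from 6 to 11 counts to 19 to 48 counts. Dio3 did not pass with the share outside genes in the model (0.85, adjusted p = 0.303) or without control FFSS replicates 2 and 3 (1.07). Meg3 and Rian had at most 1 read in any of those 6 libraries.

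Snhg3 (ENSMUSG00000085241, chr4:131903929-131909601) could not be compared with the other hosts, since 86.3% of its 986 exon bases are shared with Rcc1, with the antisense Gm17300 or with a snoRNA. Counting without strand discards reads in such stretches as ambiguous. In control cells Snhg3 had 2, 6 and 4 reads without flow and 6, 8 and 4 reads with FFSS. In DKO cells it had 3, 2 and 4 reads without flow and 2, 3 and 5 with it. Every group overlapped every other. Rcc1, the chromatin-bound exchange factor for Ran that shares the transcription unit, had 864 to 1711 counts. For the other hosts the shared part was smaller: 20.9% of Snhg1, 20.5% of Snhg12 and 17.8% of Gas5 exon bases lie over annotated snoRNAs, which took 0 reads themselves. Malat1 shares 6.09% with an antisense gene at 0 reads, and Neat1 shares none.

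Genes with the most similar pattern over the 12 libraries were found among 9718 candidates by Pearson correlation of log2 CPM. Gcn1l1 was among the genes most like Malat1 (r = 0.964). Neat1 was closest to Slc25a22 (r = 0.965) and Safb2 (r = 0.956). Snhg1 was closest to 9430008C03Rik (r = 0.959), the host Snhg17, and Dusp5 (r = 0.954). Snhg12 was closest to Cpeb1 (r = 0.980) and Rad52 (r = 0.978) and 362 candidates exceeded r = 0.9 for it. That number was 72 for Snhg1, 71 for Malat1 and 58 for Neat1. Gas5 had no candidate above 0.9, the closest being AW209491 (r = 0.857).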

How the data were processed

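The 12 libraries (control or DKO Ocy454 cells, static or FFSS for 3 h, 3 replicates each) were sequenced as single-end reads after mRNA isolation. Per the labels, the study's methods and the file naming, the authors aligned reads to mm9 with STAR and counted them per Ensembl gene with HTSeq, without strand. The deposited counts are whole reads per gene, not normalised, so reads over genes that share bases were left out. The 5 summary lines of each file were kept out of library sizes; reads outside genes were 5.10% to 10.04%.

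Genes with 0 counts in 2 or more libraries were removed, leaving 14904. edgeR 4.0.16 (R 4.3.3) with TMM scaling and a robust quasi-likelihood fit of 4 groups over all 12 libraries gave log2 fold changes, and p-values were adjusted by Benjamini-Hochberg over all tested genes. Calls were over 2-fold at an adjusted p below 0.05. The 95% intervals take each gene's SE and total degrees of freedom from that fit. CPM use TMM-scaled totals, and RPKM merged exon lengths of GENCODE vM1 (mm9). Promoters were read from the mm9 genome, which replaced the reference table planned for motif shares. The fit was tested on simulated data.

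Members and lists were chosen with earlier results of these data known. Named genes were all 9 members, Hdac4 and Hdac5, and at most 4 called genes of each list with the largest change. The 2 most alike genes per member (average log2 CPM above 3) were also named, and neighbours were added later. Sfpq, Srsf1, Srsf6, Srsf11, Ibsp, Mirg and Rcc1 were named outside that rule and were not called in the comparisons where they appear. A few neighbouring and similar genes and 1 promoter are not reported here. Older symbols were matched through RefSeq synonyms. Alternatives were RLE scaling, library totals alone, filterByExpr, no filter, no fold limit, DESeq2 1.42.0, the 6 libraries compared, a replicate block, the share outside genes as a term, and leaving out each library; leaving out control FFSS replicates 2 and 3 was chosen after seeing the data. No library pair was identical, with a chi-square per degree of freedom of 2.02 to 63.8 between replicates.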

Additional observations from a re-analysis of the deposited data

Results flagged for a closer look

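Srsf5, a splicing factor of nuclear speckles, passed for the interaction (-0.80, SE 0.11, edgeR adjusted p = 0.00189), under the 2-fold limit, beside 3.97% of all genes. Its FFSS effect was 1.05 in control and 0.25 in DKO cells. In DKO against control cells Srsf5 was at 0.62 in static culture (edgeR adjusted p = 1.35e-05) and at -0.18 under FFSS (adjusted p = 0.0561). Nnat, an imprinted gene, moved up in every control FFSS library (8, 30 and 27 counts against 3, 6 and 4). It stood below the static mean in every DKO FFSS library (6, 7 and 8 counts against 7, 8 and 12). In DKO cells Nnat overlapped between static and FFSS libraries and did not pass (-0.31, SE 0.51, edgeR adjusted p = 0.868). Its interaction of -2.52 did not pass (SE 0.71, edgeR adjusted p = 0.0664), rests on few reads, and the difference in direction itself was not tested.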

How the results depend on the processing

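Snhg12 in DKO against control static cells passed in all 20 alternatives (-1.07 to -0.83). Malat1 and Neat1 in control cells under FFSS passed in 14 and 13 of 21, and Snhg1 in 13 of 21. Library totals alone shifted the median of all genes by 0.12 in that comparison, by -0.11 in the interaction and by -0.20 in DKO against control FFSS. There Gas5 in control FFSS turned to 0.09 and Snhg12 to 0.13, Gas5 in DKO against control to -0.06 (static) and -0.03 (FFSS), and Neat1 under FFSS to -0.04. With filterByExpr, Snhg12 in control FFSS was 0.01. Without a fold limit, genes passing numbered 5338 (FFSS in control), 130 (FFSS in DKO), 591 (interaction), 8084 (DKO against control, static) and 8438 (DKO against control, FFSS), and members 1 and 3 in the last pair. In the 6 libraries compared, 438 genes and 0 members were called for FFSS in control cells, and 46 genes in DKO cells. DESeq2 called 175 genes in the interaction.

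With the share outside genes in the model, 198 genes and 0 members were called for FFSS in control cells, 50 genes in DKO cells, and 1 member, Snhg12, in DKO against control static. In control FFSS, Malat1 turned to -0.11, Neat1 to -0.20, Snhg1 to -0.09, 9430008C03Rik to -0.27 and Rpl10a to -0.10. The FFSS effect of Malat1 in DKO cells turned to -0.19, the interactions of Neat1 and Snhg1 to 0.51 and 0.26, and in DKO against control static Malat1, Neat1 and Gas5 to -0.09, -0.12 and -0.01. The cause was not tested.

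Without control FFSS replicates 2 and 3, an alternative chosen after seeing the data in which the lone library is assumed to vary like the other groups, 254 genes and 0 members were called for FFSS in control cells, with Snhg1 at -0.03 and 9430008C03Rik at -0.05. Interactions of Malat1, Neat1 and Snhg1 were 0.09, 0.68 and 0.38. In DKO against control FFSS 1 member, Neat1, was called (1.32), with Malat1 at 0.63, Snhg1 at 0.13 and 9430008C03Rik at 0.10.

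Leaving out one library gave 0 to 2 members and 494 to 1696 genes called for FFSS in control cells, 8 to 39 genes in DKO cells, and 0 to 1 member and 42 to 1138 genes in the interaction. Snhg12 in control FFSS ranged from -0.09 to 0.11, Snhg1 in the interaction from -0.31 to 0.05, Gas5 in DKO against control static from -0.03 to 0.05, and Neat1 in DKO against control FFSS from -0.17 to 0.53.

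Replicate numbers did not pair the libraries, with a mean correlation of 0.00 between same-numbered deviations (-0.06 to 0.06). A replicate block called 1 member, Neat1, for FFSS in control cells, Malat1 being at 1.00. Depth limits Meg3, H19 and Rian, and exon bases shared with other genes limit Snhg3.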
